A study of Mus musculus with 147 samples.

Results

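The cells described here are male germ cells of the mouse gonad at E12.5, compared with those of E11.5, where E stands for the embryonic day. They were chosen by the labels in the authors' table of cells, as wild-type cells that fell in the BVSC-positive sorting gate at either time-point and passed the study's quality filter of more than 2000 detected genes and 10000 to 1000000 transcripts. These were 289 of 12692 cells of the series past that filter, 151 at E11.5 and 138 at E12.5. BVSC embryos came from C57BL/6 females mated with males that carry 2 fluorescent reporters, *Blimp1*-mVenus (*Blimp1* is also named *Prdm1*) and *Stella*-ECFP (*Stella* is also named *Dppa3*), and the gate therefore selects cells in which the drivers of both reporters are active. Single-cell RNA-seq was done with a modified STRT-seq, in which transcripts are read at the 3′ end and counted by unique molecular identifiers (UMIs). Each time-point had 2 biological replicates, which hold 79 and 72 cells at E11.5 and 66 and 72 cells at E12.5. The authors deposited UMI counts, and these were summed over the cells of each replicate into 4 pools, each from a library of its own, with 20701229 to 25629589 UMIs. Levels are given as UMIs of a gene per 1000000 UMIs of the pool (CPM), first for E11.5 replicates 1 and 2 and then for E12.5 replicates 1 and 2. BVSC-negative cells of the same gonads (101 cells, 53 at E11.5 and 48 at E12.5) and BVSC-positive cells of *Helq*-null embryos (71 cells at E11.5 and 70 at E12.5, 1 pool each), a line in which a guide RNA against the first exon of the DNA helicase gene *Helq* was used, were set beside them. Per the study's supplementary material, each replicate was collected from several embryos, and each is also a library of its own, so that p-values measure the spread between such pools and not between single animals.

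Primordial germ cells (PGCs) are the embryonic precursors of sperm and eggs. After migrating through the hindgut they settle in the genital ridges, where they lose most of their DNA methylation, switch on a set of germline genes such as *Ddx4* and *Dazl*, and gradually lose the pluripotency programme that they share with the early embryo. In an XY gonad the surrounding somatic cells become Sertoli cells during this interval, and the male germ cells keep dividing before they enter mitotic arrest. Nodal signalling in male germ cells, with its feedback inhibitors *Lefty1* and *Lefty2*, is known to be active around this time.

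The gate was checked against marker genes. The germ cell markers *Dppa3*, *Dazl*, *Ddx4*, *Pou5f1* and *Dnd1* were present in all 4 germ cell pools. The summed level of 12 germ cell markers was 4522, 4768, 5453 and 4957 CPM in the germ cells and 772.5, 1077, 859 and 1080.0 CPM in the BVSC-negative cells of the same replicates. This sum holds *Dppa3* and *Prdm1*, the genes of the reporters by which the cells were sorted, so these 2 are no independent check of the gate. The somatic markers *Gata4* and *Wt1* were close to 0 in the germ cells. *Gata4*, a transcription factor of gonadal somatic cells, stood at 1.09, 3.07, 1.11 and 4.45 CPM, which is 0.350, 0.904, 0.619 and 1.99% of its level in the BVSC-negative cells. *Wt1*, another factor of these cells, stood at 3.43, 7.83, 6.96 and 6.95 CPM, or 0.801 to 3.47% of the level in the BVSC-negative cells. The summed level of 15 supporting cell markers was 52.2, 94.3, 52.9 and 86.3 CPM, with the largest part from *Nr0b1* (36.4, 55.0, 31.6 and 21.5 CPM). Among the rest, the Sertoli cell genes *Amh* (1, 0, 20 and 82 UMIs), *Dhh* (7, 2, 21 and 57 UMIs), *Ptgds* (19, 7, 43 and 234 UMIs) and *Mro* (3, 7, 21 and 49 UMIs) were low and higher in both E12.5 pools. These were 4 of 14 tested supporting markers (28.6%), beside 23.8% of all genes tested. *Nr0b1* and *Cldn11* were the 2 (14.3%) with both E12.5 pools lower, beside 20.4%, and the time-points overlapped for the others. The summed level of 13 interstitial markers was 43.2, 53.0, 70.6 and 87.9 CPM, higher in both E12.5 pools, with most of it from *Ptch1* (38.3, 38.6, 50.4 and 64.3 CPM). Of the 12 tested, 7 (58.3%) were higher in both E12.5 pools and none was lower in both, beside 23.8% and 20.4% of all genes. Apart from *Ptch1*, these 7 stood at no more than 4.37 CPM in any germ cell pool. None of the 14 supporting and 12 interstitial markers that could be tested passed the test below. Summed endothelial markers were at 46.9, 48.4, 49.6 and 57.8 CPM, or 60.4, 66.2, 60.5 and 112% of the level in the BVSC-negative cells. Most of this came from *Egfl7* (34.5, 34.8, 34.0 and 42.5 CPM). Summed blood and macrophage markers were at 45.4, 85.7, 55.3 and 16.4 CPM, or 1.16, 19.5, 24.7 and 32.3% of that level. The germ cell markers were not absent from the BVSC-negative pools, where *Dppa3* stood at 17.6, 19.9, 13.8 and 21.0% of its level in the germ cells. The authors' table labels all 4 pools as male, and the Y-linked gene *Eif2s3y* was at 199, 211, 252 and 212 CPM in them.

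Germ cells of E12.5 differed from those of E11.5 in a small share of genes. By edgeR's quasi-likelihood test on the 2 pools against 2, at a Benjamini-Hochberg false discovery rate of 0.05, 49 of 14559 genes tested were higher at E12.5 (0.337%) and 56 were lower (0.385%), 0.721% in all. A change of at least 2-fold was reached by 45 of the genes that rose and 49 of those that fell. The pools of the time-points did not overlap for any of these 105 genes. Over all genes tested, 23.8% had both E12.5 pools above both E11.5 pools and 20.4% had both below, so non-overlap alone is frequent here, and the median log2 fold change of all genes was -0.01. The first principal component of the 4 pools took 53.3% of the variance and placed both E11.5 pools (-16.5 and -10.3) apart from both E12.5 pools (17.2 and 9.56), and the second took 29.1% and separated replicates within each time-point. With 2 pools against 2, an exact permutation test of a single gene cannot go below p = 0.333, so the calls rest on the spread that the fit shares across genes. A fit that also held the pools of E10.5 and E13.5 gave similar fold changes and lost 17 of the 28 named calls, among them *Dazl* (adjusted p = 0.585), *Mael* (0.653), *Lefty1* (0.634), *Lefty2* (0.581), *Klf2* (0.517), *Fos* (0.394), *Tuba3b* (0.394), *Eif4g3* (0.302), *Hspb1* (0.278), *Alpl* (0.263), *Krt222* (0.192), *Pmaip1* (0.179), *Tuba3a* (0.171), *Etv1* (0.0957), *Dsp* (0.0726) and *Phlda2* (0.0506), all by edgeR.

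**Figure D1:**
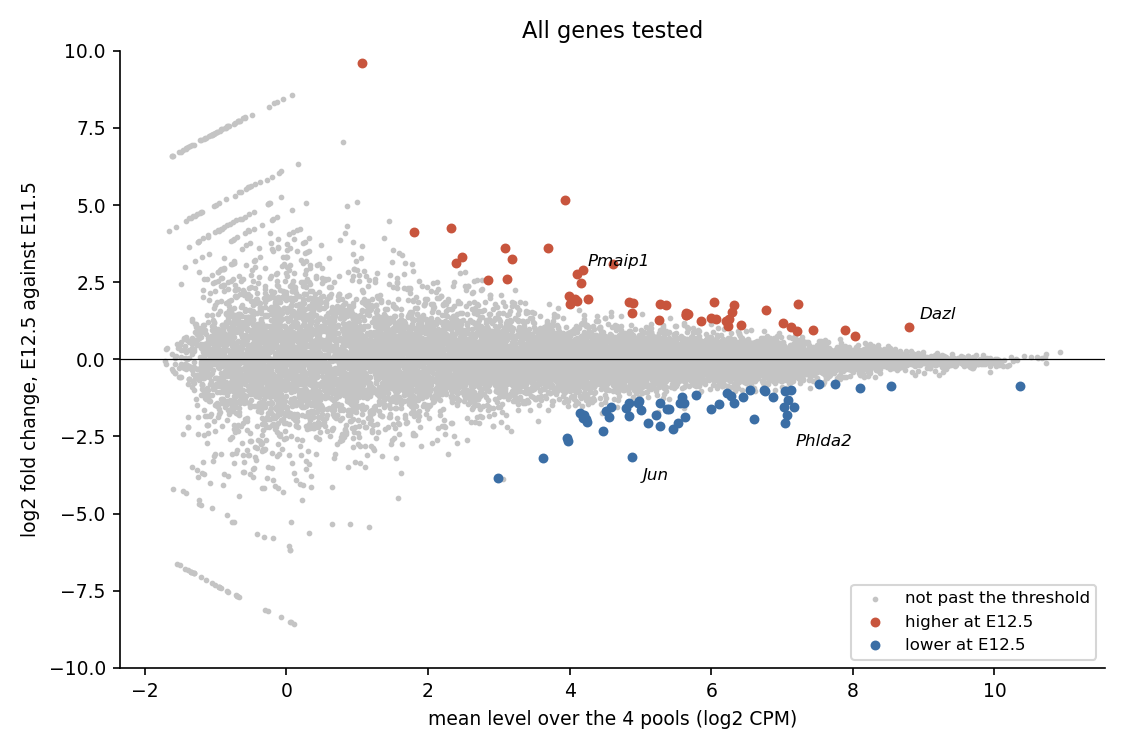
Log2 fold change of E12.5 against E11.5 (vertical axis) against the mean level over the 4 pools (horizontal axis, log2 CPM) for the 14559 genes tested, each a point. The 49 genes higher at E12.5 are red, the 56 lower at E12.5 are blue, and the rest are grey. The lines of grey points at the left are genes with few UMIs or with 0 UMIs at one time-point, whose fold change depends on the fit.

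Genes of the germline programme were higher at E12.5. *Dazl*, an RNA-binding protein that licenses germ cells to enter sexual differentiation, stood at 335 and 239 CPM at E11.5 and at 608 and 594 CPM at E12.5. Both E12.5 pools lay above both E11.5 pools, and the rise was 2.07-fold (log2 fold change 1.05 ± 0.16, SE; edgeR adjusted p = 0.00887). In summed pools, more cells with a transcript and more of it per cell cannot be told apart, and shares of cells are given separately. *Ddx4*, the germ cell RNA helicase also named mouse vasa homologue, was at 215, 169.9, 328 and 334.5 CPM, a rise of 1.70-fold (log2 0.76 ± 0.16; edgeR adjusted p = 0.043). *Mael*, which acts in the silencing of transposons by Piwi-interacting RNAs, rose from 37.1 and 49.8 CPM to 131 and 85.6 CPM, or 2.47-fold (edgeR adjusted p = 0.043), and the call was lost without E12.5 replicate 1 (adjusted p = 0.249), where the log2 fold change was 0.92. *Dmrt1*, a DM-domain transcription factor of germ cells and Sertoli cells, rose from 46.0 and 34.2 CPM to 131 and 103 CPM, or 2.88-fold (log2 1.53 ± 0.24; edgeR adjusted p = 0.0119).

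Of the 42 tested genes of the germline programme list, which holds genes of the piRNA pathway, of meiotic chromosome structure and others whose promoters are methylated in somatic cells, these 4 (9.52%) passed and none fell, beside 0.337% of all genes tested that rose. The pools did not overlap in 30 of the 42 (71.4%) with E12.5 higher and in 5 (11.9%) with E12.5 lower, beside 23.8% and 20.4% of all genes. The median log2 fold change of the list was 0.57, beside -0.01 over all genes tested. The count of 4 ranged from 1 to 12 over 17 other settings, the lowest being the fit that also held E10.5 and E13.5, which left *Dmrt1*, and from 3 to 9 when single pools were left out. Among members that did not pass, the cohesin subunit *Smc1b* was at 188, 159.7, 268 and 289 CPM (log2 0.66 ± 0.16; edgeR adjusted p = 0.0903), and *Sycp1*, a protein of the synaptonemal complex, was at 34.2, 14.4, 65.0 and 57.7 CPM (log2 1.32 ± 0.35; edgeR adjusted p = 0.118). *Gtsf1*, a partner of Piwi proteins, was at 3.92, 7.47, 23.7 and 16.8 CPM (log2 1.80 ± 0.43; edgeR adjusted p = 0.0936). *Sycp3*, *Rec8*, *Taf7l*, *Meioc* and *Tex15* were the 5 members with both E12.5 pools lower, and the first 4 of them stood below 7 CPM in every pool.

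**Figure D2:**
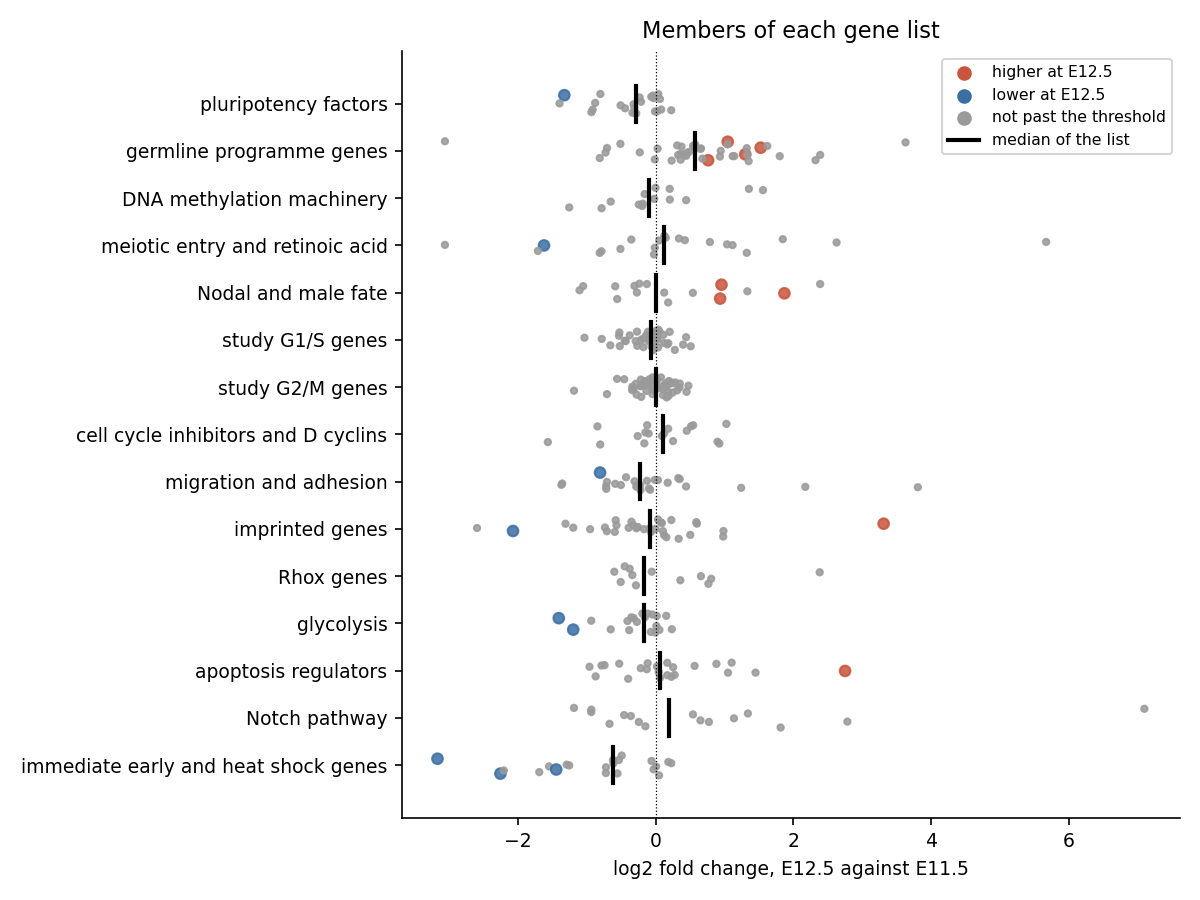
Log2 fold change of E12.5 against E11.5 for each tested member of 15 gene lists, 1 row a list and 1 point a gene. Red points passed the test with E12.5 higher, blue points with E12.5 lower, grey points did not pass, and the black bar is the median of the list. The median lies farthest right for the germline programme genes (0.57) and farthest left for the immediate early and heat shock genes (-0.62).

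The promoter sequences of germline genes were looked at because 2 short motifs, the E2F6-type GCGGGA and the E-box CACGTG, are known from promoters of genes that are silenced in somatic cells. Promoters were taken from the RefSeq table (GRCm38.p6, 250 bases before to 50 bases after a transcript's start), in which 36 of the 42 germline genes were found with 45 promoters, and both strands were searched. The E-box was in 46.7% of the germline promoters, 9.76% of the promoters of all genes tested and 7.15% of all promoters in the table, while it was in 17.4% of those of genes that rose and 6.0% of those of genes that fell. The E2F6-type motif was in 42.2% of the germline promoters, beside 33.6% for all genes tested, 34.8% for genes that rose and 15 of 50 promoters of genes that fell. The median number of CpG dinucleotides per promoter was 20 for the germline list and 19 for all genes tested. Parts of 5 promoters are printed from 5′ to 3′ on the strand of the gene, with matches to either motif or its reverse complement (TCCCGC) in capitals. *Mael* and *Dazl* rose, *Tex12*, a synaptonemal complex gene outside the list that was chosen after its values were seen, rose too, *Sycp1* did not pass, and *Ldha* fell and shows that the motifs are not limited to genes that rose. The *Mael* stretch lies at chr1:166238845-166238994 on the minus strand, 250 to 101 bases before the start, and holds both motifs. The *Tex12* stretch lies at chr9:50561329-50561428 on the minus strand, 160 to 61 bases before the start, and also holds both. The *Sycp1* stretch lies at chr3:102936151-102936250 on the minus strand, 150 to 51 bases before the start, and holds 1 E-box. The *Dazl* stretch lies at chr17:50293641-50293770 on the minus strand, 150 to 21 bases before the start, and holds neither. The *Ldha* stretch lies at chr7:46845654-46845783 on the plus strand, 150 to 21 bases before the start, and holds 2 E-boxes and 1 E2F6-type motif.
Mael: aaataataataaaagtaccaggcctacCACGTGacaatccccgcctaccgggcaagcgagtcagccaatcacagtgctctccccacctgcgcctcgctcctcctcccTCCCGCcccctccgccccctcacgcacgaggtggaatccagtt
Tex12: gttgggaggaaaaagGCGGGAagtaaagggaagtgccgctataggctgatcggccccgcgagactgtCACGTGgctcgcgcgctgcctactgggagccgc
Sycp1: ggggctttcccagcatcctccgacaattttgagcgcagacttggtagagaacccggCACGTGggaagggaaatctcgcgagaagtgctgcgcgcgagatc
Dazl: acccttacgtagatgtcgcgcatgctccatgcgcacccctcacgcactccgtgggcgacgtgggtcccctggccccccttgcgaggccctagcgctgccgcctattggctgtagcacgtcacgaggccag
Ldha: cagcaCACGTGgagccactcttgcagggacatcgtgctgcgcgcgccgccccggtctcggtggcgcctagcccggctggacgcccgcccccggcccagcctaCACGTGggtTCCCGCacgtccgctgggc

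The feedback inhibitors of Nodal signalling rose. *Lefty2*, a secreted inhibitor of Nodal, was at 162 and 156 CPM at E11.5 and 286 and 342 CPM at E12.5 (1.94-fold, log2 0.96 ± 0.16; edgeR adjusted p = 0.0135). *Lefty1*, its neighbour and paralogue, was at 135, 102, 215 and 245 CPM (1.91-fold, log2 0.94 ± 0.18; edgeR adjusted p = 0.0313), and this call was lost without E12.5 replicate 2 (adjusted p = 0.0622). The 2 genes lie on chromosome 1, at 180893108-180899103 and 180935022-180938400 on the plus strand in mm10. The ligand *Nodal* itself was at 32.7, 53.0, 53.3 and 74.2 CPM and did not pass (log2 0.54 ± 0.29; edgeR adjusted p = 0.495), and the co-receptor *Tdgf1*, also named Cripto, was at 83.0, 68.2, 65.2 and 58.5 CPM (edgeR adjusted p = 0.657). The type I receptor *Acvr1b* was at 22.1, 14.5, 7.83 and 10.1 CPM and the transducer *Smad2* at 77.1, 87.8, 89.9 and 93.0 CPM, and neither passed (edgeR adjusted p = 0.255 and 0.884).

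Both *Lefty* calls were lost in the fit that also held E10.5 and E13.5 (edgeR adjusted p = 0.634 for *Lefty1* and 0.581 for *Lefty2*). The male germ cell genes *Nanos2*, an RNA-binding protein that promotes the male pathway, and *Dnmt3l*, a cofactor of de novo DNA methylation, had 0 UMIs in all 4 pools. *Piwil4*, a Piwi protein of prospermatogonia, was at 0.444, 4.04, 4.78 and 6.87 CPM.

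**Figure D3:**
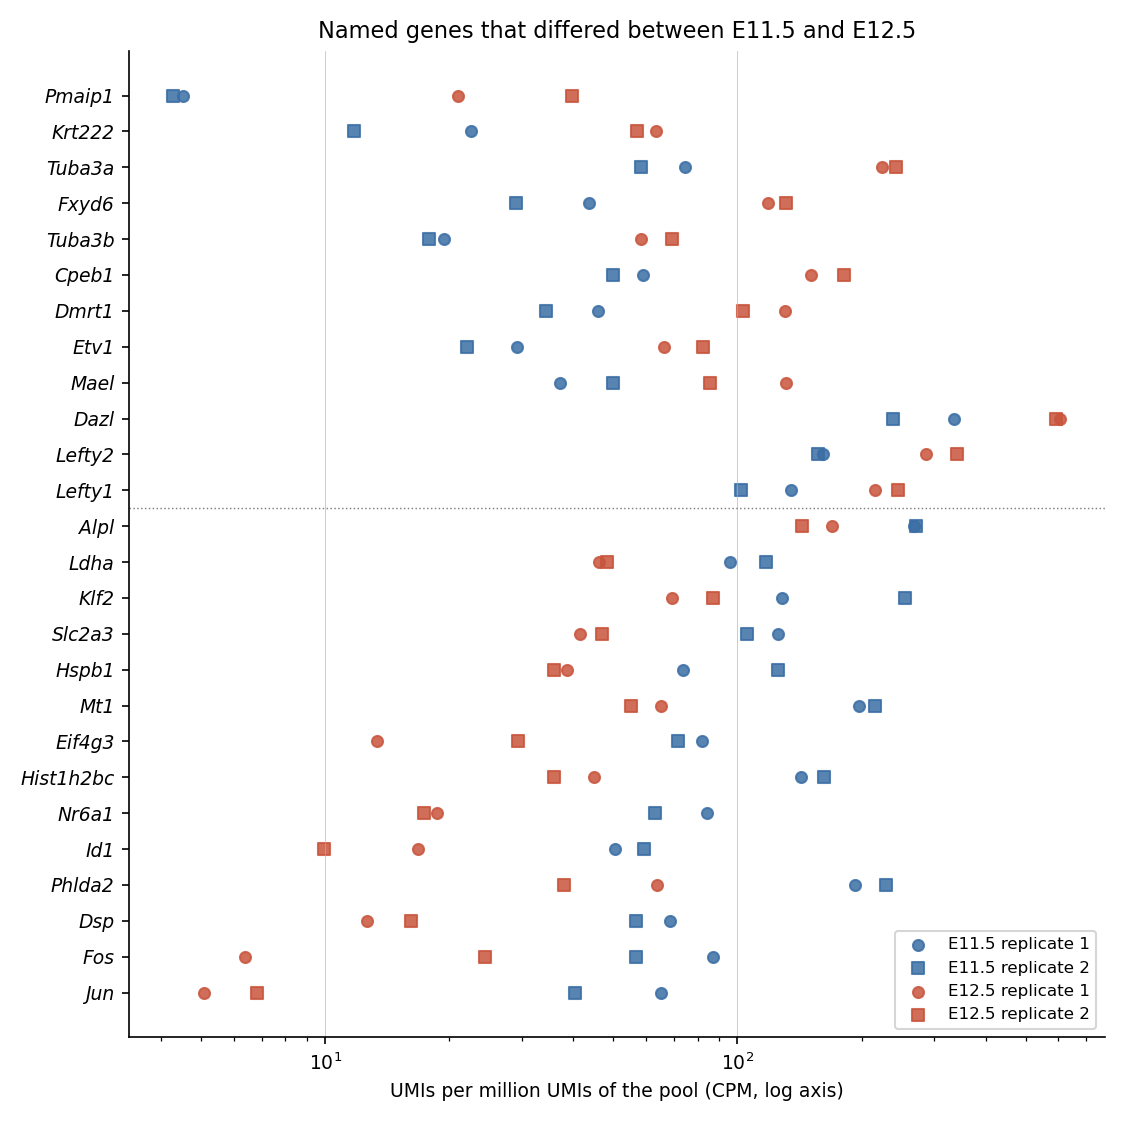
Level of 26 named genes that passed the test in each of the 4 pools (horizontal axis, CPM on a log scale), with 1 row a gene. Blue points are E11.5 and red points E12.5, circles are replicate 1 and squares replicate 2. The 12 genes above the dotted line were higher and the 14 below it lower at E12.5, with no overlap of the time-points in any row.

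Other genes of at least 32 CPM on average that rose most belong to no single list. *Cpeb1*, which controls the polyadenylation and translation of stored mRNAs, was at 59.1, 49.8, 151 and 181 CPM (3.00-fold, log2 1.58 ± 0.20; edgeR adjusted p = 0.00304). *Etv1*, an ETS transcription factor, was at 29.2, 22.1, 66.3 and 82.4 CPM (2.85-fold, log2 1.51 ± 0.26; edgeR adjusted p = 0.018). The keratin *Krt222* was at 22.6, 11.8, 63.5 and 57.1 CPM (3.48-fold, log2 1.80 ± 0.32; edgeR adjusted p = 0.021), and *Fxyd6*, a regulator of the sodium pump, at 43.6, 29.1, 118 and 131 CPM (3.38-fold, log2 1.76 ± 0.24; edgeR adjusted p = 0.00483). BVSC-negative cells held more *Fxyd6*, at 185, 142, 228 and 371 CPM, and its rise there did not pass (log2 0.937; edgeR adjusted p = 0.118). The alpha-tubulin genes *Tuba3a* (74.8, 58.5, 224 and 242 CPM) and *Tuba3b* (19.4, 17.8, 58.4 and 69.4 CPM) rose by 3.44-fold and 3.37-fold. They are near-identical copies between which reads may be split, so the division of the rise between them is uncertain.

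Pluripotency factors lay lower or level. *Klf2*, a Krüppel-like factor of naive pluripotency, was the 1 member of 24 tested (4.17%, beside 0.385% of all genes tested that fell) to pass, at 128 and 255 CPM at E11.5 and 69.4 and 87.0 CPM at E12.5 (2.51-fold lower, log2 -1.33 ± 0.27; edgeR adjusted p = 0.043). The E11.5 pools differed nearly as much as the time-points, and without E11.5 replicate 2 the log2 fold change was -0.72 with an adjusted p of 0.126. *Sox2*, a core pluripotency factor, was at 257, 224, 124 and 156 CPM and lay at the threshold (log2 -0.80 ± 0.17; edgeR adjusted p = 0.0501). The naive factors *Esrrb* (127, 109.9, 53.3 and 74.5 CPM) and *Tfcp2l1* (95.2, 99.0, 50.5 and 57.0 CPM) were lower in both E12.5 pools and did not pass (edgeR adjusted p = 0.0953 and 0.103). *Pou5f1*, which encodes OCT4, was at 253, 224, 213 and 263 CPM, and *Dppa5a*, an RNA-binding protein of pluripotent cells, at 1544, 1692, 1919 and 1552 CPM, and the time-points overlapped for both. In all, 10 of the 24 (41.7%) had both E12.5 pools lower and none had both higher, beside 20.4% and 23.8% of all genes, with a median log2 fold change of -0.29.

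*Jun*, *Fos* and a small heat shock gene of the immediate early and heat shock list fell. The AP-1 genes *Fosb*, *Junb* and *Jund* of this list did not pass. *Jun*, a subunit of the AP-1 transcription factor, had the largest fall among the named genes, from 65.3 and 40.3 CPM to 5.07 and 6.83 CPM (log2 -3.17 ± 0.34; edgeR adjusted p = 0.000946). *Fos*, which encodes another AP-1 subunit, stood at 87.2, 56.7, 6.38 and 24.4 CPM (4.78-fold lower, log2 -2.26 ± 0.45; edgeR adjusted p = 0.0381), and did not pass with DESeq2 (adjusted p = 0.148), with limma (0.133) or with library size alone (0.108). The small heat shock gene *Hspb1* was at 73.7, 125, 38.6 and 35.9 CPM (2.72-fold lower; edgeR adjusted p = 0.028), a call that was lost without E11.5 replicate 2 (adjusted p = 0.0616). These are 3 of 21 tested (14.3%, beside 0.385%) with none higher, 12 of 21 (57.1%) had both E12.5 pools lower and none both higher, beside 20.4% and 23.8% of all genes, and the median log2 fold change was -0.62. The large chaperones were level, with *Hspa8* at 805, 832, 855 and 774 CPM. BVSC-negative cells of the same gonads held far more of *Jun* (885, 503, 217 and 207 CPM) and of *Fos* (775, 928, 297 and 679 CPM), and *Jun* fell there too (edgeR adjusted p = 0.0178). The germ cell level of *Jun* was 7.38, 8.02, 2.34 and 3.30% of that in the BVSC-negative cells, above the shares of the somatic markers *Gata4* and *Wt1* at E11.5 and slightly below that of *Wt1* at E12.5. The part that RNA of BVSC-negative cells had in the fall was not tested.

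A gene of glucose uptake and another of lactate formation fell. *Slc2a3*, the glucose transporter GLUT3, was at 126, 105, 41.5 and 47.0 CPM (2.65-fold lower, log2 -1.41 ± 0.22; edgeR adjusted p = 0.0119). *Ldha*, the A subunit of lactate dehydrogenase, was at 95.7, 117, 46.1 and 48.3 CPM (2.29-fold lower, log2 -1.20 ± 0.23; edgeR adjusted p = 0.0265). These were 2 of 20 tested genes of glycolysis (10.0%, beside 0.385%) and none rose, while 13 of 20 (65.0%) had both E12.5 pools lower and 2 (10.0%) both higher, beside 20.4% and 23.8% of all genes, with a median log2 fold change of -0.18. The other lactate dehydrogenase subunit, *Ldhb*, was at 463, 464, 575 and 534 CPM and did not pass (edgeR adjusted p = 0.519), and *Pkm*, pyruvate kinase, was at 692, 694, 682 and 659 CPM. In the BVSC-negative cells *Ldha* stood at 682, 900.0, 653 and 654 CPM.

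Further genes that fell came from different lists or from none. *Phlda2*, an imprinted regulator of placental growth, was at 193 and 229 CPM at E11.5 and 63.6 and 37.9 CPM at E12.5 (4.20-fold lower, log2 -2.07 ± 0.25; edgeR adjusted p = 0.00245). Of 33 imprinted genes tested it was the 1 that fell, and *Ascl2*, a basic helix-loop-helix factor at low level (0.566, 1.41, 11.6 and 8.47 CPM), was the 1 that rose, so that 3.03% passed in each direction, beside 0.385% of all genes that fell and 0.337% that rose. *Nr6a1*, the nuclear receptor GCNF, stood at 84.4, 63.0, 18.7 and 17.3 CPM (4.15-fold lower, log2 -2.05 ± 0.27; edgeR adjusted p = 0.00321). *Id1*, an inhibitor of basic helix-loop-helix factors and target of BMP signalling, stood at 50.4, 59.4, 16.8 and 9.91 CPM (4.16-fold lower, log2 -2.06 ± 0.33; edgeR adjusted p = 0.0119). BVSC-negative cells held more *Id1*, at 377, 498, 126 and 312 CPM, and its fall there did not pass (log2 -0.945; edgeR adjusted p = 0.249). The part that RNA of BVSC-negative cells had in the fall of *Id1* was not tested. The family members *Id2* (40.2, 55.9, 14.1 and 17.6 CPM) and *Id3* (449.6, 494, 283 and 247 CPM), named after their values were seen, fell as well. *Alpl*, tissue-nonspecific alkaline phosphatase and a classical stain of PGCs, was at 268, 272, 169.9 and 143 CPM (1.75-fold lower, log2 -0.81 ± 0.17; edgeR adjusted p = 0.0418), the 1 of 26 migration and adhesion genes (3.85%, beside 0.385% of all genes that fell) to pass, and the call was lost without E12.5 replicate 2 (adjusted p = 0.188).

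*Dsp*, the desmosomal plaque protein desmoplakin, fell from 68.8 and 56.7 CPM to 12.6 and 16.2 CPM (4.43-fold lower, log2 -2.15 ± 0.28; edgeR adjusted p = 0.00306). *Mt1*, a metallothionein that binds zinc, fell from 197 and 215 CPM to 65.3 and 55.2 CPM (3.47-fold lower, log2 -1.80 ± 0.20; edgeR adjusted p = 0.00102), and it fell in the BVSC-negative cells too (328, 486, 50.9 and 94.9 CPM; edgeR adjusted p = 0.00405). The histone gene *Hist1h2bc* was at 143, 162, 44.9 and 35.9 CPM (3.83-fold lower; edgeR adjusted p = 0.0016), and the translation factor gene *Eif4g3* at 82.0, 71.9, 13.3 and 29.3 CPM (3.69-fold lower; edgeR adjusted p = 0.018).

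Genes of retinoic acid and meiosis showed no common direction. Of 21 tested genes, 9 (42.9%) had both E12.5 pools higher and 6 (28.6%) both lower, beside 23.8% and 20.4% of all genes, with a median log2 fold change of 0.13. *Crabp1*, which binds retinoic acid, was at 87.7, 119, 74.7 and 46.8 CPM and did not pass (edgeR adjusted p = 0.228). *Stra8*, a gene induced by retinoic acid at the entry into meiosis, had 0, 1, 34 and 25 UMIs. Among 23 regulators of apoptosis, *Pmaip1*, which encodes the p53 target NOXA, was the 1 to pass (4.35%, beside 0.337% of all genes that rose), at 4.53, 4.28, 21.0 and 39.8 CPM (6.74-fold higher, log2 2.75 ± 0.39; edgeR adjusted p = 0.00611), while *Bax* was at 413, 404, 511 and 478 CPM (edgeR adjusted p = 0.49).

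Outside glycolysis, no gene of the lists on cell division, growth and energy passed. None of 43 G1/S genes, 53 G2/M genes, 18 cell cycle inhibitors and cyclins, 15 Mcm helicase and licensing genes, 83 cytosolic ribosomal proteins, 76 nuclear subunits of oxidative phosphorylation, 13 genes of the mitochondrial genome and 36 proteasome subunits passed edgeR's test in either direction, and neither did any of 14 genes of DNA methylation, 12 *Rhox* genes and 16 Notch pathway genes. In other settings up to 5 members of a list passed, the ribosomal proteins with crossed replicate numbers. Medians of these lists lay between -0.17 and 0.20. Both E12.5 pools were lower for 36.1% of the ribosomal proteins and higher for 1.20%, lower for 46.2% of the mitochondrial genome genes and higher for 15.4%, and lower for 30.2% of the G1/S genes and higher for 11.6%, beside 20.4% and 23.8% of all genes. The summed level of the G2/M genes was 12270, 13140, 13070 and 12980 CPM and that of the ribosomal proteins 64830, 68210, 65960 and 60340 CPM. The histone chaperone *Nasp* was at 607, 537, 487 and 475 CPM (edgeR adjusted p = 0.43), *Mcm6*, a subunit of the replicative helicase, at 396, 331, 347 and 336 CPM (adjusted p = 0.837), and the G2/M gene *Hmgb2* at 951, 913, 1009 and 892 CPM (adjusted p = 0.992). *Cdkn1a*, the cell cycle inhibitor p21, was at 128, 118, 218 and 145 CPM (adjusted p = 0.305), *Hells*, a chromatin remodeller needed for DNA methylation, at 502, 393, 527 and 519 CPM (adjusted p = 0.628), *Rhox5* at 625, 663, 671 and 587 CPM (adjusted p = 0.922) and *Hey1*, a target of Notch, at 150.4, 123, 120.4 and 129.8 CPM (adjusted p = 0.833). The most abundant members of the remaining lists did not pass either, with *Rpl13* at 1293, 1218, 1372 and 1167 CPM, *Cox7c* at 944, 1020.0, 1001 and 885 CPM, mt-Atp6 at 1735, 1808, 2266 and 1960 CPM, *Psma7* at 624, 675, 634 and 597 CPM, *Ifitm2* at 638, 726, 686 and 609 CPM and *Peg3* at 304, 252, 174 and 208 CPM. The 2 reporter genes did not pass, *Prdm1* at 107, 106, 56.1 and 82.3 CPM (adjusted p = 0.24) and *Dppa3* at 736, 890.4, 950.2 and 851 CPM (adjusted p = 0.794).

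The share of cells with a transcript moved with the pool levels. Each cell was thinned to 50000 UMIs, which left out 3 cells of E11.5 and 4 of E12.5 in the germ cells and 3 and 7 in the BVSC-negative cells. The median depth before thinning was 294185 to 373621 UMIs in the 4 germ cell pools and 140850.0 to 197220.0 UMIs in the BVSC-negative ones. *Krt222* was then found in 35.9 and 28.6% of cells at E11.5 and 73.8 and 78.3% at E12.5 (55.7, 51.4, 90.9 and 95.8% without thinning), with a median of 0 UMIs per cell in both E11.5 pools and 2 and 3 UMIs at E12.5. In the BVSC-negative cells, which serve as the background, *Krt222* was found in 0 of 29 cells and then in 4.76, 15.8 and 9.09% of cells (6.67, 4.35, 37.5 and 41.7% without thinning). More germ cells than background cells thus held *Krt222* at both time-points. *Dazl* was in 96.2 and 95.7% of cells at E11.5 and in every cell at E12.5, and its median went from 15 and 10 UMIs per cell to 31 and 32, while the background cells had medians of 0 to 3 UMIs. *Jun* was in 75.6 and 55.7% of cells at E11.5 and in 13.8 and 18.8% at E12.5 (92.4, 88.9, 54.5 and 58.3% without thinning). Each share lay below that of the BVSC-negative cells of the same replicate, which was 100, 95.2, 57.9 and 81.8% after thinning. *Phlda2* was in 96.2 and 97.1% of cells at E11.5 and in 61.5 and 46.4% at E12.5 (100, 100, 89.4 and 95.8% without thinning, and 58.6, 33.3, 15.8 and 27.3% of thinned background cells), with up to 33 and 13 UMIs in single cells of E12.5. *Mael* went from 61.5 and 58.6% to 96.9 and 85.5% of cells (86.1, 86.1, 97.0 and 94.4% without thinning, and 4.55 to 15.8% of thinned background cells). *Pmaip1* went from 12.8 and 12.9% to 32.3 and 56.5% (up to 26.4% at E11.5 and 48.5 and 86.1% at E12.5 without thinning, and 4.55 to 6.90% of thinned background cells), so that it was found in a minority of cells in 3 of the 4 pools.

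**Figure D4:**
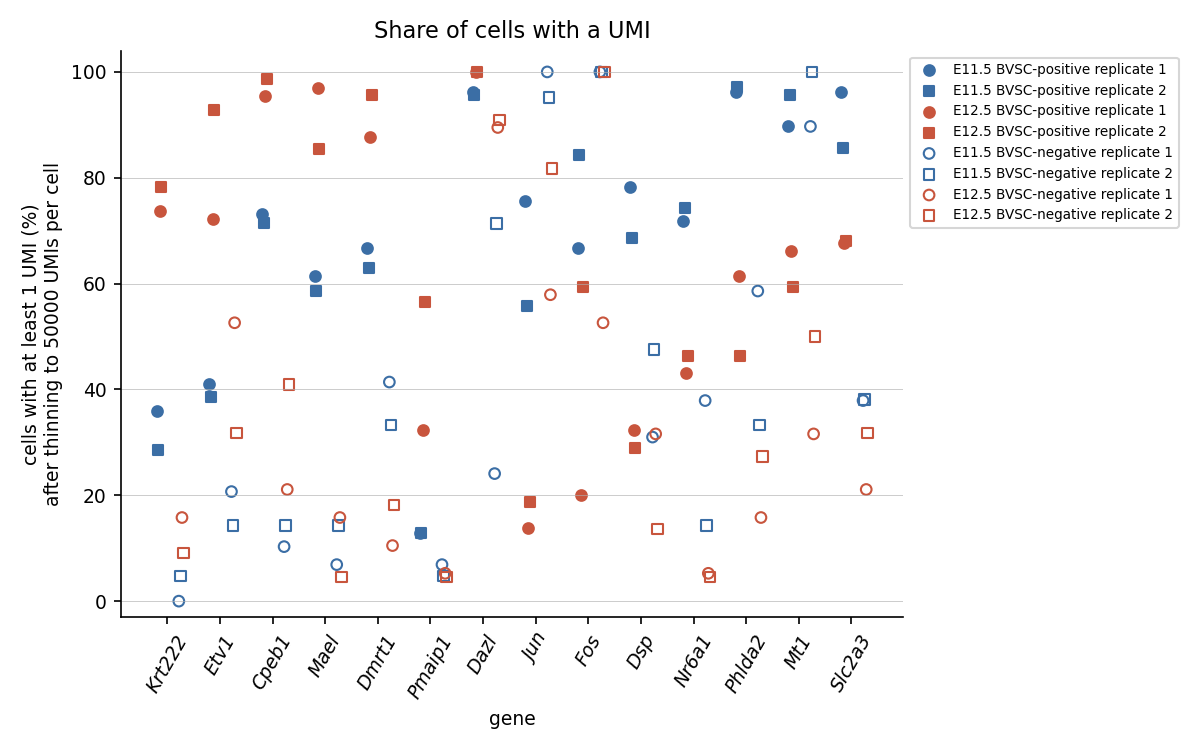
Share of cells (percent, vertical axis) with at least 1 UMI of 14 genes after each cell was thinned to 50000 UMIs. Filled points are BVSC-positive germ cells and open points BVSC-negative cells, blue is E11.5 and red E12.5, circles are replicate 1 and squares replicate 2. For *Krt222*, the filled red points lie at 73.8 and 78.3% and the filled blue ones at 35.9 and 28.6%.

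Levels at the neighbouring time-points were set beside these without a test. Per the paper's methods, cells of E10.5 were sorted from digested whole embryos and not from gonads. At E10.5 replicates 1 and 2 carry no label of sex and had *Eif2s3y* at 2.91 and 1.33 CPM, beside 114 CPM in replicate 3, which is labelled male. *Lefty1* was at 7.37 to 36.2 CPM in the 3 pools of E10.5 and at 246 and 366 CPM in the 2 of E13.5, and *Lefty2* at 9.02 to 38.4 CPM and then at 210.1 and 348 CPM. *Dazl* was at 9.93 to 50.4 CPM at E10.5 and 825 and 769 CPM at E13.5, so that its levels at E11.5 and E12.5 lay between. *Mael* reached 393 and 127 CPM at E13.5, the 2 pools standing apart. *Phlda2* had 455 to 575 CPM at E10.5 and 10.8 and 30.3 CPM at E13.5, and *Ldha* 402 to 433 CPM and then 65.4 and 48.0 CPM. *Jun* did not follow such an order, with 13.4 to 36.5 CPM at E10.5 and 18.9 and 21.7 CPM at E13.5, each of them below both pools of E11.5 and above both of E12.5.

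**Figure D5:**
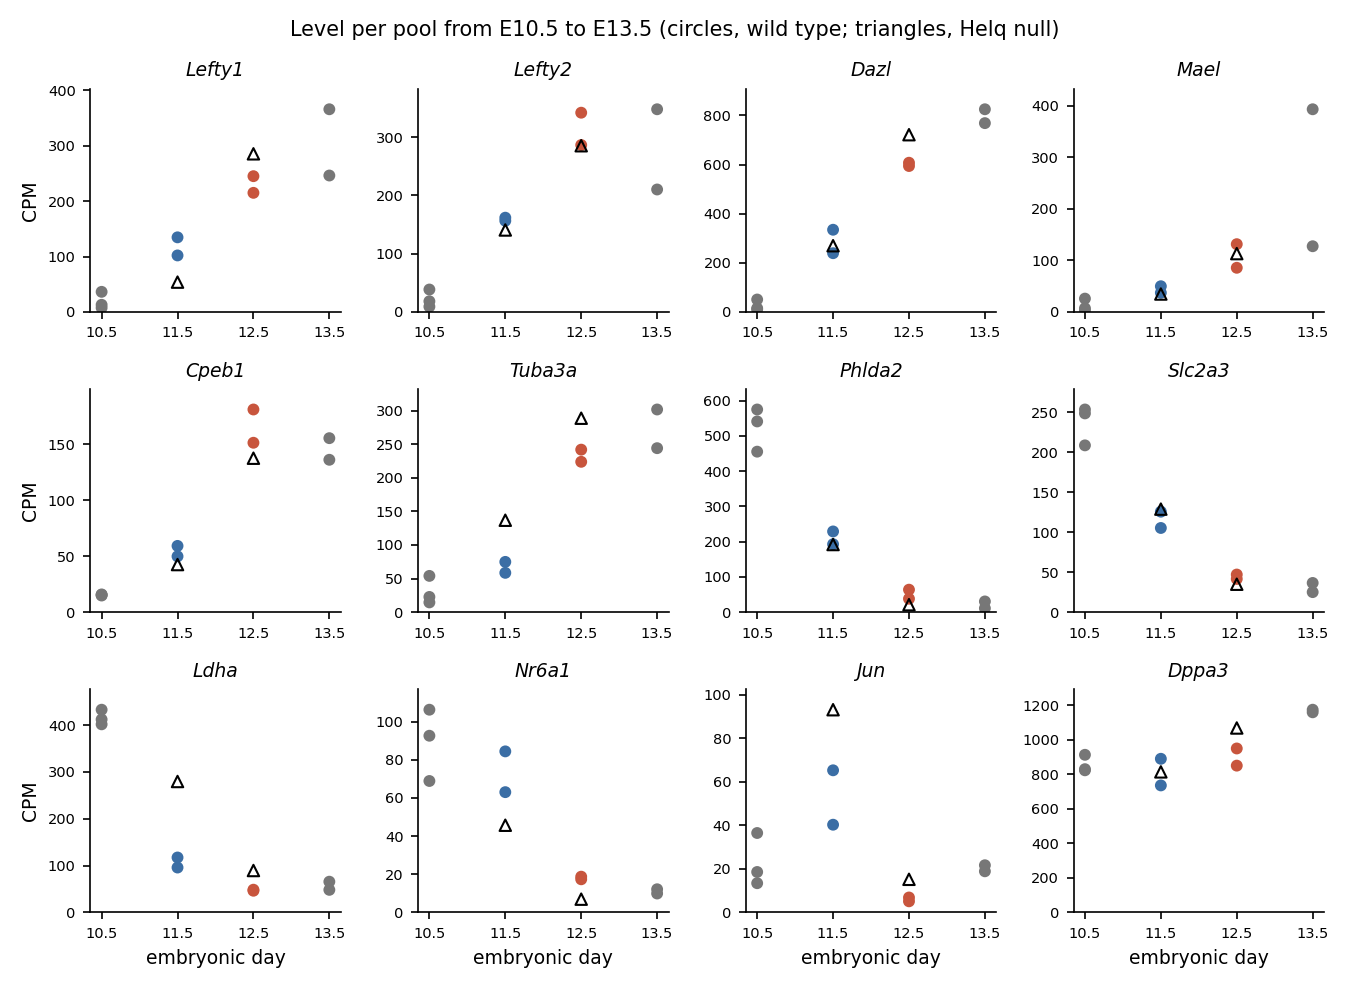
Level (CPM, vertical axis) of 12 genes in each wild-type BVSC-positive pool from E10.5 to E13.5 (horizontal axis, embryonic day), as circles, with E11.5 in blue and E12.5 in red, and in the 2 *Helq*-null pools as open triangles. The vertical axes differ between panels and start at 0. *Dazl* lies higher at each day and *Phlda2* lower, while *Jun* is highest at E11.5.

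The *Helq*-null pools gave values from other animals of a different genotype, with 1 pool per time-point and so no test. All 28 named genes that passed in the wild type had the same direction there, with *Dazl* at 269.6 and 722 CPM, *Jun* at 93.2 and 15.2 CPM, *Phlda2* at 192 and 21.1 CPM and *Ldha* at 279 and 89.3 CPM, while *Klf2* was nearly equal (85.9 and 84.5 CPM). Of all 105 genes called in the wild type, 98.1% had the same direction, beside 61.2% of all genes tested, and the exceptions were 2 of the 56 that fell.

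The same interval was tested for a difference between germ cells and BVSC-negative cells of the same gonads. Of 15654 genes tested by edgeR's quasi-likelihood test of the interaction, 13 (0.0830%) passed, 5 with the change higher in germ cells and 8 with it lower. Of the 16 genes with the largest changes, 8 up and 8 down, *Dmrt1* was the 1 to pass. It stood at 53.4, 43.9, 19.5 and 12.4 CPM in the BVSC-negative cells, where the pools of the time-points lay in the opposite order to the germ cells (log2 difference of the changes 3.10; edgeR adjusted p = 0.0467). The other 15 did not pass, which does not show that the 2 kinds of cells changed alike. Called genes outside the 16 passed too. Among them were *Lmo1*, with the change higher in germ cells, and *Cd24a*, *Sept11*, *Anxa2* and *Fstl1*, with it lower (edgeR adjusted p = 0.0359 for each). Germ and BVSC-negative cells of a replicate came from the same library, except that part of the BVSC-negative cells of E11.5 replicate 1 came from another. This fit leaves the pairing out. With a block by replicate number 62 genes passed, but that block joins different libraries of the 2 time-points and does not model the pairing either. The BVSC-negative pools held 2928743 to 5865209 UMIs. *Tuba3a* rose and *Mt1* fell in the BVSC-negative cells as well (edgeR adjusted p = 0.0386 and 0.00405). *Tuba3a* was low there, at 4.43, 3.28, 10.2 and 15.3 CPM. The germ cell markers *Dazl* and *Ddx4* rose there too (edgeR adjusted p = 0.00405 and 0.0307). The part that RNA of germ cells had in the rise of *Tuba3a* there was not tested.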

How the data were processed

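Cells were sequenced with a modified STRT-seq. According to the methods and submitters' notes, barcodes and UMIs were extracted with UMI-tools, reads trimmed with seqtk, mapped to mm10 with STAR and counted per gene with featureCounts. The authors deposited UMI counts of 31053 genes in 13032 cells without normalization. The sum and number of genes of the 1512 cells read were checked against and equalled the authors' table of cells, which gave time-point, genotype, gate and replicate, since the labels name only the library. The members, gene lists and the rule for named genes were chosen with earlier results of these data known.

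UMI counts were summed per pool and fitted with edgeR 4.0.16 (glmQLFit and glmQLFTest, TMM, filterByExpr, R 4.3.3) on the 2 pools of each time-point, with Benjamini-Hochberg adjustment at 0.05. The interaction with the sorting gate was fitted on 8 pools. The SE of a log2 fold change is its absolute value divided by the square root of the F statistic. The dispersion gave a biological coefficient of variation of 39.0%. On simulated data, 74% of genes changed by 2-fold and 100% of those changed by 4-fold were recovered, with 100 genes each. The changed genes were drawn only from the more abundant genes, at the log2 CPM limit given below for named genes. Recovery of genes below that limit was not tested. CPM were computed without TMM. Alternatives used DESeq2 1.42.0, limma 3.58.1, other size factors, filters, cells and pools.

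Named genes were the 8 genes that rose and the 8 that fell by the most, taken from those past 0.05 whose pools did not overlap and whose log2 CPM averaged 5 or more, and in each list, among members of at least 10 CPM, up to 3 that passed and, where fewer than 2 passed, the most abundant that did not. Other members are given as examples, and a few genes that the rule names are not reported here. Cells were thinned with a fixed seed, and no caller of doublets was run, since cells were picked singly. Barcodes recur between libraries by design, 72 of 80 in more than 1 of the 4, and no barcode recurred within a library. Replicate pools differed by more than sampling noise (chi-square per degree of freedom 43.1 and 28.9). The library of E11.5 replicate 1 carries another number series than the other 3, whose meaning is not given in the sources used here. Counts of near-identical genes may be split. Coordinates of genes are of mm10 (GENCODE M21), the build of the files. Cells sorted for *Blimp1*-mVenus alone at E11.5 were used only as an alternative.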

Additional observations from a re-analysis of the deposited data

Results flagged for a closer look

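The change of *Dmrt1* from E11.5 to E12.5 differed between BVSC-positive germ cells and BVSC-negative cells of the same gonads, by 3.10 on the log2 scale (edgeR's quasi-likelihood test of the interaction, adjusted p = 0.0467). It rose in the germ cells and was lower in both E12.5 pools of the BVSC-negative cells, where the fall did not pass on its own (log2 -1.55, adjusted p = 0.0593). *Dmrt1* is known from both germ cells and Sertoli cells, and the BVSC-negative cells are a mixture of somatic types whose shares were not compared here. The fit also leaves out the pairing of germ and BVSC-negative cells by library.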

How the results depend on the processing

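The main counts were 49 genes higher and 56 lower at E12.5, and no named call changed direction under 17 other settings. The counts were 208 and 235 with DESeq2, 121 and 175 with thinned cells, 91 and 124 for genes of at least 10 CPM on average, 170 and 232 with no filter beyond 1 UMI, 32 and 26 with library size alone, and 8 and 18 when E10.5 and E13.5 shared the fit, where 17 of 28 named calls were lost. They were 41 and 70 with cells of the *Blimp1*-mVenus gate added, 49 and 53 with DESeq2 size factors, 52 and 52 with limma on mean CPM, 49 and 55 without the filter on cells, and 49 and 56 with cells of more germ than somatic marker signal. Leaving out single pools gave 71 to 221 higher and 98 to 205 lower (221 and 193 without E11.5 replicate 1, 184 and 205 without E11.5 replicate 2, 79 and 115 without E12.5 replicate 1, 71 and 98 without E12.5 replicate 2), with the lone pool assumed to vary like the others. With a replicate block the counts were 119 and 130, and the correlation of the replicate differences was -0.22, so the numbers were also crossed in the block, an alternative added after the data were seen, with 206 and 268. The interaction count of 13 was 62 with a replicate block and 212 with DESeq2. Of the 28 named calls, 10 (among them *Fxyd6*, *Cpeb1*, *Dmrt1*, *Id1*, *Nr6a1*, *Hist1h2bc*, *Mt1*, *Slc2a3* and *Jun*) passed under all 17 settings. With library size alone 7 were lost, with adjusted p from 0.0507 (*Krt222*) to 0.108 (*Fos*), and with limma *Fos* and *Klf2* were lost (0.133 and 0.102). The cause of these changes was not tested. With 2 pools a time-point, changes of low genes are poorly resolved.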

Other observations

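Other genes that passed are given here as values, chosen after they were seen. *Hesx1*, a homeobox gene, had 16 and 24 UMIs at E11.5 and 452 and 980 at E12.5 (36.1-fold, log2 5.17 ± 0.47), and *Lmo1*, a LIM-domain gene, 47, 48, 236 and 945 UMIs. *Khdc3*, a gene known from oocytes, stood at 5.41, 4.81, 39.5 and 49.0 CPM (8.49-fold). *Retreg1*, a receptor of autophagy of the endoplasmic reticulum, had 0 UMIs in both E11.5 pools and 53 and 144 at E12.5, at least 67.5-fold higher against a floor of 3 counts over the E11.5 pools. *Sohlh2*, a transcription factor of later germ cell differentiation, was at 47.6, 47.7, 97.3 and 109.7 CPM (log2 1.09 ± 0.22). *Mt4*, another metallothionein, had 372 and 352 UMIs at E11.5 and 7 and 44 at E12.5. *Bcl11a*, a zinc finger repressor, was at 8.53, 6.02, 25.5 and 28.8 CPM.

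*Lhx1*, which stands on the list of mesonephros markers, was higher in the germ cells (119, 60.04, 178 and 208 CPM) than in the BVSC-negative cells (1.88, 1.51, 3.41 and 4.63 CPM), and the antisense gene *Lhx1os* passed with a rise from 13.9 and 10.7 to 43.9 and 46.4 CPM. Whether counting used strand is not given in the sources used here, and without it the reads of *Lhx1* and *Lhx1os* cannot be told apart. The fetal Leydig genes *Hsd3b1* and *Cyp17a1* had 4 and 2 UMIs in E12.5 replicate 1 and 230 and 120 in replicate 2, and 0 at E11.5. *Gm42418*, a transcript that overlaps ribosomal RNA, fell from 1745 and 1613 to 896 and 991 CPM, and *Hist1h1b*, a linker histone, from 28.04 and 28.31 to 10.1 and 6.24 CPM. These are the 2 called genes that went the other way in the *Helq*-null pools, *Gm42418* from 1287 to 2151 CPM and *Hist1h1b* from 21.5 to 64.2 CPM.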
